A study of Mus musculus with 4 samples.

Results

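The genes described here encode cell surface receptors for the extracellular matrix and the matrix proteins they bind: integrin subunits, laminin chains, syndecans, fibronectin, the nidogens and perlecan. They were taken by gene symbol from the platform annotation. The pattern took Itga and Itgb followed by lower-case letters or digits, the laminin chain symbols, Sdc1 to Sdc4, and Fn1, Nid1, Nid2 and Hspg2. It found 44 genes among the 12394 named genes of the array, measured by 82 probe sets. There were 14 integrin α subunits, 8 integrin β subunits, 10 laminin chains, 4 syndecans, and the 4 genes Fn1, Nid1, Nid2 and Hspg2. The remaining 4, Itgb1bp1, Itgb1bp2, Itgb3bp and Itgbl1, carry an integrin-like symbol but encode no integrin subunit. Itga1, Itga10, Itga11, Itgad and Itgb8 also fit the pattern and were not analysed here. Where a gene had several probe sets, the one of highest mean over the 4 arrays stood for it.

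All cells were C2C12, an immortal line of mouse myoblasts; without attachment it leaves the cell cycle for G0, a reversible resting state. The cells were grown in Dulbecco's modified Eagle medium with 20% fetal calf serum and then kept for 48 hours in semi-solid methyl cellulose, without addition (control, 2 arrays) or with purified Wnt3A at 50 ng/ml (2 arrays). The contrast compares suspended cells with and without added Wnt3A, and no measure of β-catenin activity was used. All 4 samples were non-adherent, so the contrast does not compare attached with suspended cells. The labels call the arrays biological replicates but do not say that cultures were started separately, so the spread may be partly technical.

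Integrins are heterodimers of 1 α and 1 β subunit that connect the matrix to the actin cytoskeleton. They signal through focal adhesion kinases and adaptors when bound and clustered. Laminins are trimers of an α, a β and a γ chain, and form the sheet of the basement membrane that surrounds each muscle fibre; nidogens and perlecan cross-link this sheet to collagen IV. Syndecans are transmembrane heparan sulfate proteoglycans that bind fibronectin, laminins and growth factors, Wnt proteins among them. In muscle, the laminin chain gene Lama2 and the integrin subunit gene Itga7 are known disease genes, and satellite cells rest between the fibre and its basement membrane.

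Signals are log2 values, and means are given ± SD (n = 2 arrays). Every difference is the Wnt3A mean minus the control mean. With 2 arrays per group, the precision is limited by their number. The median signals of the arrays lay between 4.15 and 4.22. All 8 myoblast markers looked at (Myod1, Myf5, Des, Cdh15, Ncam1, Vim, Tpm1 and Acta2) were above the limit for dim genes, a mean signal of 2.18 that 25% of genes lay under. Of the markers of other cell types, 5 of 9 for leukocytes (Ptprc among them), 6 of 8 for endothelium (Pecam1 and Cdh5 among them) and 4 of 8 for epithelium (Epcam and Cdh1 among them) were under it. Those above it had mean signals up to 3.84 (Csf1r), 2.30 (Kdr) and 3.96 (Krt19), with Csf1r at 5.19 and Krt19 at 5.61 on Wnt3A replicate 2. The myoblast markers were not even across the arrays. Myod1 read 6.84 and 7.11 on the control arrays and 6.32 and 3.62 on the Wnt3A arrays. Myf5 read 6.57 and 5.98 and then 7.77 and 7.65, and Cdh15 read 5.39 and 5.56 and then 5.69 and 4.04. By mean, 3 of the 8 were higher and 5 lower with Wnt3A. On a bulk array, fewer cells that express a gene and less RNA per cell cannot be told apart.

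No difference of the 34 members above the limit had an adjusted p under 0.05 (limma, Benjamini-Hochberg adjustment), and 0 of the 9295 genes tested did (0%). At an unadjusted p under 0.05 stood 4 members, Sdc1, Lamb1, Nid1 and Itgb2, all lower with Wnt3A. Over all tested genes that share was 5.68%, or 528 genes. Both Wnt3A arrays lay above both controls for 9 of the 44 members, where the share over all genes on the array was 14.5%, and below both for 11, where it was 19.2%. These are shares of 20.5% and 25%. The median difference of the members was -0.06, beside -0.02 over all genes on the array. With 1 array removed, a single array stands against a pair and groups separate more easily. There were 18 members above without control replicate 2, and 15 above and 17 below without Wnt3A replicate 1. There were 22 below without control replicate 1 and 19 below without Wnt3A replicate 2. Shares over all genes were not counted for these fits, and 14.5% and 19.2% are no baseline for them. Scaling the arrays to their hybridization controls, spiked-in transcripts, adds 0.32 to every difference and moves the median of all genes to 0.30. This scaling raises both Wnt3A arrays against both controls, so the 9 members above both could only stay there. After it, 12 of the 44 members were above both controls, and of the 11 lower ones only Sdc1 stayed below both. Over all genes the shares were 42.2% above and 3.62% below. Differences are therefore relative to the other genes of the array.

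**Figure D1:**
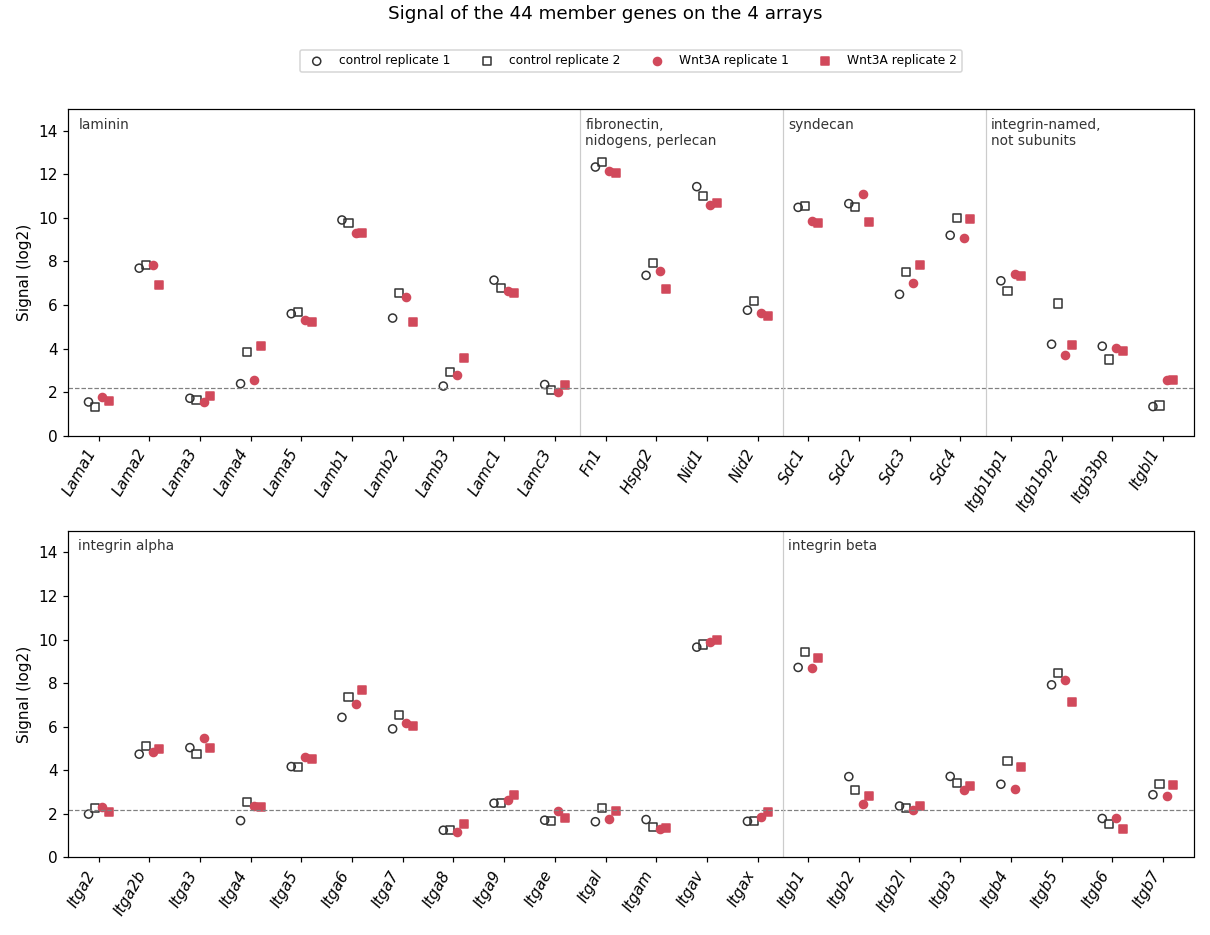
Signal (log2) of each of the 44 members on the 4 arrays, by role; open symbols are control arrays, filled symbols Wnt3A arrays, circles replicate 1 and squares replicate 2, and the dashed line is the limit for dim genes at 2.18. The Sdc1, Lamb1 and Nid1 points of the Wnt3A arrays lie under those of the controls, and for Sdc2 they lie on both sides of them.

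Lamb1 and Lamc1, the genes of the ubiquitous β1γ1 laminin backbone, had lower mean signals with Wnt3A, neither at an adjusted p under 0.05 in limma. Lamb1, the β1 chain gene, read 9.90 and 9.77 on the control arrays and 9.29 and 9.32 on the Wnt3A arrays. The groups did not overlap, and the arrays of a group were at most 0.14 apart. Its difference was -0.53 (SE 0.17, 95% confidence interval from -0.98 to -0.09, limma adjusted p = 0.809), and -0.21 after scaling to hybridization controls. The other probe sets of Lamb1 gave -0.38 and -0.71, both with Wnt3A below both controls. Lamc1, the γ1 chain gene, read 7.14 and 6.78 on the control arrays and 6.64 and 6.57 on the Wnt3A arrays, so that the groups differed by -0.35 (SE 0.22). Here the control arrays were 0.36 apart, more than the groups. Lama5, which encodes the α5 chain of the laminins most widespread in adult basement membranes, read 5.60 and 5.68 on the control arrays and 5.33 and 5.23 on the Wnt3A arrays, so that the groups differed by -0.36 (SE 0.21, limma adjusted p = 0.917). After scaling to hybridization controls Lamc1 and Lama5 both stood at -0.04. The other probe sets of Lamc1 and Lama5 gave -0.23 and -0.32, both with overlapping groups.

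Lama2, the α2 chain of the muscle fibre laminins, read 7.69 and 7.84 on the control arrays and 7.84 and 6.93 on the Wnt3A arrays. Wnt3A replicate 2 was the low array, and without it the difference turned from -0.38 to 0.08. Lamb2, the β2 chain that is concentrated at the neuromuscular junction, read 5.40 and 6.55 on the control arrays and 6.38 and 5.21 on the Wnt3A arrays, so that each group held a high and a low array (difference -0.18, SE 0.57). Lama4, which encodes the α4 chain of vessels and developing muscle, read 2.39 and 3.86 on the control arrays and 2.56 and 4.10 on the Wnt3A arrays. Replicate 2 was the higher array in both groups, and the 95% confidence interval ran from -1.67 to 2.08. Lamb3, a chain of epithelial laminin, read 2.28 and 2.94 on the control arrays and 2.80 and 3.55 on the Wnt3A arrays, so that the groups differed by 0.56 (SE 0.36). Lama1 and Lama3 were under the limit for dim genes, and Lamc3 lay at 2.21 ± 0.19 and 2.17 ± 0.23 (SD, n = 2), close to it. Of the 10 laminin genes, 6 had a lower and 4 a higher mean with Wnt3A, and 4 were lower after scaling to hybridization controls; the median was -0.11.

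Fn1, Nid1, Nid2 and Hspg2 all had lower means with Wnt3A. For all but Hspg2 both Wnt3A arrays lay below both controls as deposited (75%, beside 19.2% of all genes on the array). After scaling to hybridization controls Fn1 stood at -0.04, Nid1 at -0.26, Nid2 at -0.08 and Hspg2 at -0.17, all with overlapping groups. Nid1, which links laminin to collagen IV, read 11.43 and 10.99 on the control arrays and 10.59 and 10.69 on the Wnt3A arrays. Its difference was -0.58 (SE 0.21, 95% confidence interval from -1.14 to -0.02, limma adjusted p = 0.878) and was between -0.80 (control replicate 2 left out) and -0.36 (control replicate 1 left out). The other Nid1 probe set gave -0.95, with overlapping groups. Nid2, its paralogue, read 5.76 and 6.18 on the control arrays and 5.64 and 5.51 on the Wnt3A arrays, so that the groups differed by -0.40 (SE 0.25). Fn1, the gene of fibronectin, read 12.33 and 12.58 on the control arrays and 12.15 and 12.04 on the Wnt3A arrays, so that the groups differed by -0.36 (SE 0.17). On the other Fn1 probe set the groups overlapped and the difference was 0.09. Hspg2, the gene of the heparan sulfate proteoglycan perlecan, read 7.36 and 7.91 on the control arrays and 7.54 and 6.74 on the Wnt3A arrays. Wnt3A replicate 2 was again the low array, and the difference was -0.49 (SE 0.37), or -0.09 without that array. On the other Hspg2 probe set the groups overlapped, Wnt3A replicate 1 was the low array and the difference was -0.10.

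Syndecan genes did not all lie on one side of the controls. Sdc1, which encodes syndecan-1, a coreceptor whose shed ectodomain carries growth factors, had the lowest p of all members. It read 10.48 and 10.56 on the control arrays and 9.86 and 9.75 on the Wnt3A arrays, which is 10.52 ± 0.06 and 9.80 ± 0.07 (SD, n = 2). Its difference was -0.72, a signal 1.64-fold lower (SE 0.17, 95% confidence interval from -1.15 to -0.28, limma adjusted p = 0.604). The gap between the arrays of a group was at most 0.10, and leaving out any 1 array left the difference between -0.77 and -0.66. The other Sdc1 probe sets gave -0.79, -0.78 and -0.42, the last with overlapping groups. Sdc1 was also the only member whose Wnt3A arrays stayed below both controls after scaling to hybridization controls, at a difference of -0.40.

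Sdc2, which encodes a syndecan abundant in mesenchymal cells, read 10.65 and 10.49 on the control arrays and 11.09 and 9.82 on the Wnt3A arrays. The Wnt3A arrays were on either side of the controls, and this held on all 3 of its probe sets; the difference was -0.12 (95% confidence interval -1.29 to 1.05). The syndecans described in satellite cells are encoded by Sdc3 and Sdc4. On the probe sets of highest mean, both genes were higher on replicate 2 than on replicate 1 in both groups. The other Sdc3 probe sets were lower on control replicate 2 than on control replicate 1. Sdc3 read 6.49 and 7.51 on the control arrays and 7.0 and 7.84 on the Wnt3A arrays, so that the groups differed by 0.41 (SE 0.47). Its other probe sets gave 0.07 with overlapping groups and 0.98 with both Wnt3A arrays above both controls. Sdc4 read 9.20 and 9.98 on the control arrays and 9.09 and 9.96 on the Wnt3A arrays. The groups differed by -0.07 (SE 0.42), or 0.25 after scaling to hybridization controls. The other Sdc4 probe set gave -0.22, with both Wnt3A arrays below both controls as deposited.

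**Figure D2:**
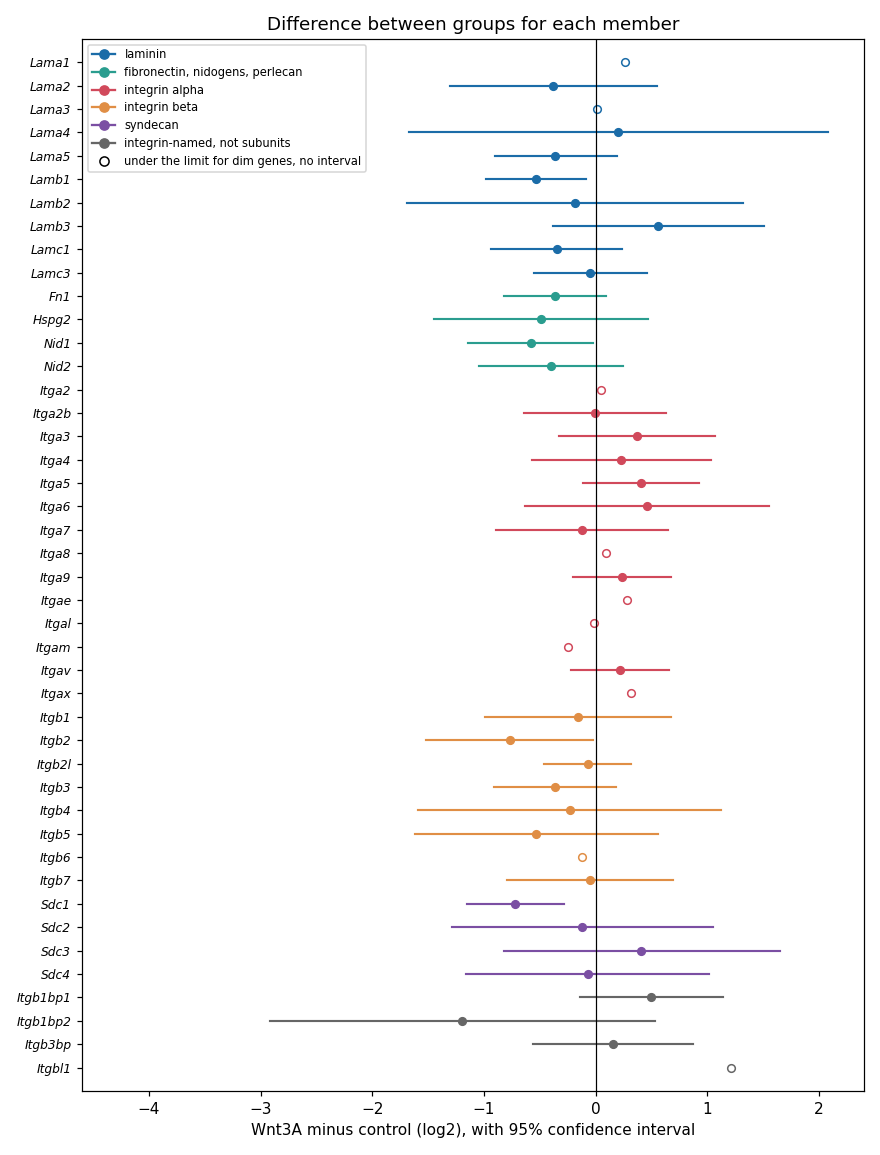
Difference of each member (Wnt3A minus control, log2) with the 95% confidence interval of the limma fit, coloured by role; open circles are members under the limit for dim genes, which were not tested. The intervals of Sdc1, Lamb1, Nid1 and Itgb2 lie under 0; all 8 integrin β subunits lie under 0 as deposited, and 3 of them after scaling to hybridization controls, which moves every point up by 0.32.

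Promoters are shown because a Wnt3A signal acts through TCF/LEF factors bound to β-catenin. They belong to the members with a window that were lower at an unadjusted p under 0.05, and to the 2 tested members that were highest without overlap, a choice made after the values were seen. RefSeq (GRCm38.p6) windows of the 250 bases before the start were at hand for 28 of the 44 members, 31 windows in all. They were searched on both strands for TCF/LEF motifs (CTTTG and then a pair of bases that are each A or T), AP-1 motifs (TGANTCA with C or G as the N) and the GC box bound by Sp factors (GGGCGG). None of these motifs contains another. Windows are written along the gene's strand, and capitals mark a match to a motif. The lower group is given by Sdc1 (chr12:8771146-8771395, plus strand), Lamb1 (chr12:31265043-31265292, plus strand) and Nid1 (chr13:13437352-13437601, plus strand), and the higher group by Itga5 (chr15:103366792-103367041, minus strand) and Itgb1bp1 (chr12:21286285-21286534, minus strand).
Sdc1: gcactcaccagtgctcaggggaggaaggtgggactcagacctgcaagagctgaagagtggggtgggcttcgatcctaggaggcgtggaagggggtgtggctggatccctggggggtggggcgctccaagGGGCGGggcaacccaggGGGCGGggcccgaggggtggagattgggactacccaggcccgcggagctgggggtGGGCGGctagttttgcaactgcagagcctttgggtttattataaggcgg
Lamb1: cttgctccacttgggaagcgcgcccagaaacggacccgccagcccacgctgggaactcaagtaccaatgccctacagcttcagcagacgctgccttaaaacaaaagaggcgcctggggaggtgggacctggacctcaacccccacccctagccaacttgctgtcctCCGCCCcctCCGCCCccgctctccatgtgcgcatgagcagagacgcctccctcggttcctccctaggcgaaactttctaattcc
Nid1: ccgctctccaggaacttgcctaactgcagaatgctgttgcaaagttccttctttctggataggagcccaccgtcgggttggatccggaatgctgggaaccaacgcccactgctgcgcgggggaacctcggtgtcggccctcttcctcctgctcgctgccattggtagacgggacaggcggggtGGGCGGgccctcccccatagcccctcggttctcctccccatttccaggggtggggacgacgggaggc
Itga5: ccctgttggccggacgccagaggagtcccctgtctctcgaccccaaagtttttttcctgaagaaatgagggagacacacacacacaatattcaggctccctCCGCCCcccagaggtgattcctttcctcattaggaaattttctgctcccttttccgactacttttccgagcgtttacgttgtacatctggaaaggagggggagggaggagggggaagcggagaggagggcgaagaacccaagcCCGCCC
Itgb1bp1: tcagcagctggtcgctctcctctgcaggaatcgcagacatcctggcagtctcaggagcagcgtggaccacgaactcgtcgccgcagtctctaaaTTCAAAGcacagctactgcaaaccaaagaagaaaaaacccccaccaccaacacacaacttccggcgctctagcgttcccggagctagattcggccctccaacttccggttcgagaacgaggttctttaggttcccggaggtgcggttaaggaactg
All capitals in the first 4 windows are GC boxes, and those in the window of Itgb1bp1 are a TCF/LEF motif on the opposite strand. A TCF/LEF motif stood in 1 of the 31 member windows (3.23%), that of Itgb1bp1, and in 14.8% of all 32851 windows of the same length. A GC box stood in 15 member windows (48.4%) and in 32.7% of all windows, and an AP-1 motif in 1 (3.23%), that of Itgax, and in 4.46% of all. The median GC content was 58.4% in member windows and 52.4% in all. GC boxes thus stood in windows of both directions, and a match is only a run of letters, not a bound site.

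Among the integrin α subunits, 10 of 14 had a higher mean with Wnt3A, beside 47.1% of all genes on the array. After scaling to hybridization controls it was 14 of 14, beside 86.8% of all genes, and as deposited 12 of 14 lay above the median difference of all genes. On the probe sets of highest mean, both Wnt3A arrays lay above both controls for 6 of the 14 (42.9%, beside 14.5% of all genes). For 1, Itgam, they lay below (19.2% of all genes). Of the 6, Itga3, Itga5 and Itga9 also had a probe set above the limit for dim genes with overlapping groups. Itgae and Itgax, among the 6, and Itgam were under the limit for dim genes. The differences were small, from -0.25 to 0.46, with a median of 0.22, and the lowest adjusted p in limma was 0.917. Itga5, whose product pairs with β1 as the main fibronectin receptor, read 4.17 and 4.14 on the control arrays and 4.61 and 4.52 on the Wnt3A arrays. The arrays of a group were at most 0.09 apart, and the difference was 0.41 (SE 0.20, 95% confidence interval -0.11 to 0.93). The other Itga5 probe set gave 0.21, with overlapping groups. Itgav, which encodes the αv subunit of the vitronectin receptors, read 9.65 and 9.77 on the control arrays and 9.89 and 9.96 on the Wnt3A arrays, so that the groups differed by 0.22 (SE 0.17); a dimmer probe set gave 0.64, also without overlap.

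Subunits that pair with β1 to bind laminin did not all differ in one direction. Itga3 read 5.04 and 4.73 on the control arrays and 5.47 and 5.04 on the Wnt3A arrays. The groups differed by 0.37 (SE 0.27), and the highest control nearly reached the lowest Wnt3A array. Its other probe sets gave 0.21 without overlap and 0.00 with overlapping groups. Itga6 had higher signals on replicate 2 in both groups, at 6.43 and 7.35 in the controls and 7.02 and 7.69 on the Wnt3A arrays, so that the groups differed by 0.46 (SE 0.42). Itga7, the laminin receptor subunit of skeletal muscle, read 5.90 and 6.54 on the control arrays and 6.17 and 6.03 on the Wnt3A arrays; its difference was -0.12 (95% confidence interval -0.89 to 0.65), and 0.20 without control replicate 2 or after scaling to hybridization controls. Itga9, a receptor subunit for tenascin and other ligands, lay at 2.51 ± 0.02 and 2.75 ± 0.17 (SD, n = 2), and Itga4 at 2.11 ± 0.60 and 2.34 ± 0.02, both close to the limit for dim genes. The other Itga9 probe set above the limit gave 0.00, with overlapping groups. Itga2b, the platelet subunit, differed by -0.0044 (95% confidence interval -0.64 to 0.63). Under the limit were Itga2, Itga8 and the leukocyte subunits Itgae, Itgal, Itgam and Itgax.

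All 8 integrin β subunits had a lower mean with Wnt3A and lay below the median difference of all genes, although 5 of them were higher than control after scaling to hybridization controls. For 2 of them, Itgb2 and Itgb3, both Wnt3A arrays lay below both controls, a share of 25% beside 19.2% of all genes; the median was -0.19. Itgb1, the subunit shared by most matrix receptors, read 8.72 and 9.43 on the control arrays and 8.70 and 9.14 on the Wnt3A arrays. The difference of -0.16 (95% confidence interval -0.99 to 0.68) was smaller than the gap of 0.71 between the controls, and its probe sets above the limit differed in sign. Itgb5, a partner of αv, read 7.92 and 8.46 on the control arrays and 8.16 and 7.15 on the Wnt3A arrays. All 4 of its probe sets placed Wnt3A replicate 2 lowest, and without that array the difference shrank from -0.53 to -0.03. Itgb3, the other main partner of αv, read 3.72 and 3.40 on the control arrays and 3.11 and 3.28 on the Wnt3A arrays, so that the groups differed by -0.36 (SE 0.21).

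Itgb2, the β subunit of leukocyte integrins, had the widest difference of any integrin subunit. It read 3.71 and 3.08 on the control arrays and 2.44 and 2.81 on the Wnt3A arrays, so that the groups differed by -0.77 (SE 0.29, 95% confidence interval from -1.52 to -0.02, limma adjusted p = 0.878) that ran from -1.09 to -0.46 when 1 array was left out. Its partners Itgal, Itgam and Itgax were under the limit for dim genes on the mean of the 4 arrays. The summed signal of 9 leukocyte markers was 5.61 and 5.53 (log2) in control and 5.63 and 6.25 with Wnt3A, with 5 of the 9, Ptprc among them, under the limit. Itgb4, the hemidesmosome subunit, and Itgb7 both had wider gaps between replicates than between groups. Itgb4 read 3.36 and 4.41 on the control arrays and 3.13 and 4.17 on the Wnt3A arrays, and Itgb7 read 2.88 and 3.39 and then 2.83 and 3.33. Itgb2l lay at 2.32 ± 0.05 and 2.25 ± 0.12 (SD, n = 2), close to the limit, and Itgb6, an epithelial subunit, under it.

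**Figure D3:**
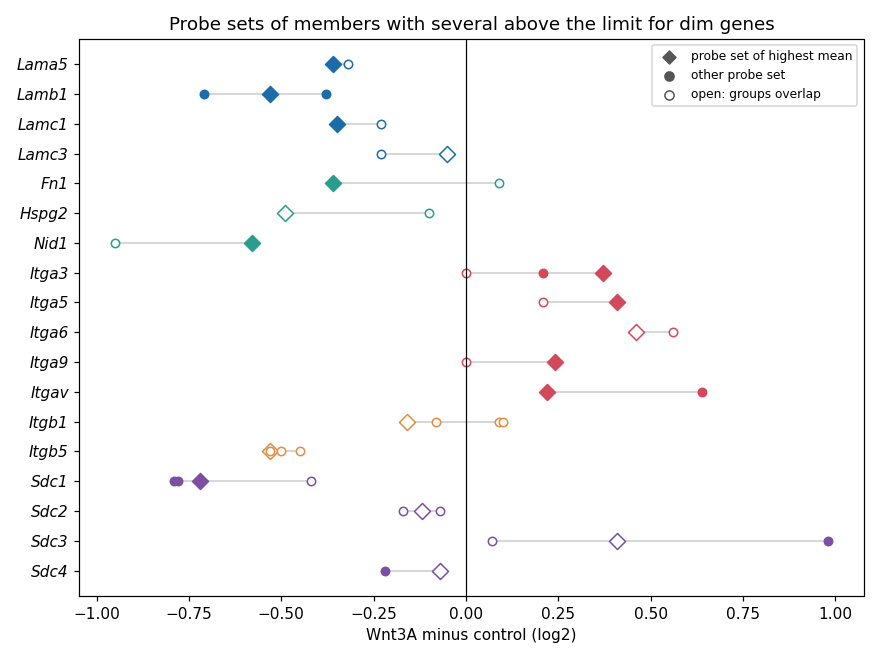
Difference (Wnt3A minus control, log2) of every probe set above the limit for dim genes, for the 18 members with more than 1; diamonds are the probe sets of highest mean, circles the others, and open symbols mark overlapping groups. By sign, all probe sets lay on one side of 0 for 16 members, while those of Fn1 and Itgb1 lay on both. Of the 16, Itga3 and Itga9 each had a probe set at 0.00. Scaling to hybridization controls moves every point up by 0.32.

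The 2 members at least 2-fold apart, both with groups that did not overlap, carry an integrin-like symbol without encoding a subunit. Over all genes on the array 3.37% were as far apart, and 2.76% also without overlap. Itgb1bp2 encodes melusin, a chaperone-like protein of striated muscle that binds the β1 tail. It read 4.20 and 6.07 on the control arrays and 3.72 and 4.17 on the Wnt3A arrays, so that the groups differed by -1.20 (SE 0.66, limma adjusted p = 0.917). Control replicate 2 stood far above the other 3 arrays, and removing it gave -0.26, and removing control replicate 1 gave -2.13. A list of 14 contractile and muscle enzyme genes, chosen with their values known, had the same high array, which the choice may have produced. Control replicate 2 lay above control replicate 1 in 13 of them, by a median of 1.26, beside 0.05 over all genes on the array. Their median difference was -1.04, or -0.60 without control replicate 2 and -1.59 without control replicate 1. The part of differentiated muscle genes in the Itgb1bp2 value was not tested.

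Itgbl1 encodes a secreted protein with integrin-like repeats. It read 1.34 and 1.39 on the control arrays and 2.58 on both Wnt3A arrays, so that the groups differed by 1.21 with replicate gaps of at most 0.05. Its mean over the 4 arrays did not reach the limit for dim genes, so it was not tested and its controls are near background. Itgb1bp1 encodes ICAP-1, a cytoplasmic protein that binds the β1 tail and holds the integrin inactive. It read 7.11 and 6.63 on the control arrays and 7.40 and 7.35 on the Wnt3A arrays, so that the groups differed by 0.50 (SE 0.24, 95% confidence interval -0.14 to 1.14) that went to 0.26 with control replicate 2 left out and to 0.74 with control replicate 1 left out. Itgb3bp, the gene of a centromere protein, differed by 0.16 (SE 0.27).

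Over all members the replicate gap was often wider than the difference between groups. For 30 of the 44 members (68.2%) the wider gap between arrays of one group exceeded the difference of the group means, beside 79.0% of all genes on the array. Lama4, Sdc2, Lamb2 and Itgb4 had gaps of 1.55, 1.27, 1.17 and 1.06 and differences of at most 0.23 in size. Sdc1, Lamb1, Itga5 and Lama5 had gaps of at most 0.14 and differences from 0.36 to 0.72 in size. Wnt3A replicate 2 was lowest by over 0.5 for Itgb5, Lama2, Hspg2 and Sdc2, and control replicate 1 for Itga4, Itga6, Lamb3 and Sdc3.

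**Figure D4:**
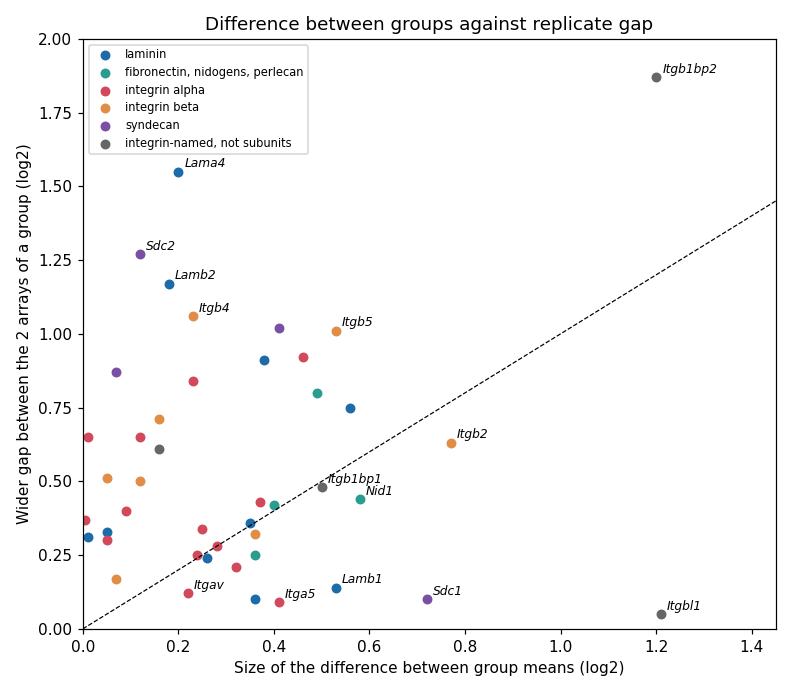
Size of the difference between group means (log2, horizontal) against the wider gap between the 2 arrays of a group (log2, vertical) for the 44 members, coloured by role; the dashed line marks equality. Above the line lie 30 members, Itgb1bp2 and Lama4 highest, while Sdc1, Lamb1 and Itgbl1 lie far below it.

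Genes that work with these receptors and ligands were looked at in 6 lists. They are described by counts beside the shares of 14.5% (above both controls) and 19.2% (below both) over all genes. In limma, 0 genes of any list had an adjusted p under 0.05. An unadjusted p under 0.05 stood for 6 of the 19 other matrix ligands tested, 3 of 18 heparan sulfate genes and 2 of 15 lateral partners. It stood for 0 of 34 focal adhesion genes, 0 of 12 other basement membrane receptors and linkers, and 0 of 13 syndecan partners. Over all tested genes that share was 5.68%. With 1 array left out, the difference moved by over 1.5 times for 13 of the 24 genes of lowest p. It changed its sign for 0 of them, but they were picked by p on the same 4 arrays, so this could hardly differ. Of the list genes at least 2-fold apart, Postn, Thbs1 and Mmp9, all with overlapping groups, did change sign. Without Wnt3A replicate 2, Postn went from -1.43 to 0.84 and Thbs1 from -1.01 to 0.22. Without Wnt3A replicate 1, Mmp9 went from -1.01 to 0.30. The widest differences stood among other matrix ligands of integrins. Of 23 such genes on the array, 9 were at least 2-fold apart (39.1%, beside 3.37% of all genes), 7 of them without overlap; 4 of the 23 lay above and 8 below both controls, and the median was -0.13. Vcam1, the gene of an adhesion molecule bound by α4β1, had the widest difference and is named after its value was seen. It read 8.47 and 7.65 on the control arrays and 6.41 and 1.82 on the Wnt3A arrays, and its difference of -3.94 (SE 1.54, limma adjusted p = 0.901) was -1.64 without Wnt3A replicate 2. Emilin1, an elastic fibre glycoprotein gene, read 6.90 and 7.17 on the control arrays and 5.53 and 5.62 on the Wnt3A arrays, so that the groups differed by -1.46 (SE 0.22, limma adjusted p = 0.361). Npnt, the gene of nephronectin, a basement membrane ligand of the α8β1 integrin, read 6.89 and 7.15 on the control arrays and 9.09 and 8.46 on the Wnt3A arrays, so that the groups differed by 1.75 (SE 0.28, limma adjusted p = 0.412). The signal of Itga8 was 1.26 ± 0.01 and 1.35 ± 0.28 (SD, n = 2), under the limit for dim genes. Tnc, the gene of the matrix protein tenascin-C, read 6.17 and 7.13 on the control arrays and 8.98 and 7.71 on the Wnt3A arrays, so that the groups differed by 1.69 (SE 0.55). Fbln1, the gene of fibulin-1, read 7.71 and 6.40 and then 5.26 and 4.54, a difference of -2.16 (SE 0.53).

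Focal adhesion adaptors and kinases, the cytoplasmic side of integrin signalling, had no gene at least 2-fold apart among 35 on the array. There 5 lay above and 3 below both controls, and the median was 0.10; after scaling to hybridization controls it was 0.42. Crk, an adaptor gene, differed by 0.50 (SE 0.20) and Bcar1, the gene of the scaffold p130Cas, by 0.72 (SE 0.40; 0.23 without Wnt3A replicate 2), while the actin regulator gene Enah differed by -0.32 and the parvin gene Parva by -0.41. Other laminin and basement membrane receptors and linkers (16 genes) had a median of -0.19, with Dag1, the gene of the laminin receptor dystroglycan, at a difference of 0.25 (SE 0.17) and the collagen receptor gene Ddr2 at -0.44. Ddr1 differed by 0.62, or 0.21 without Wnt3A replicate 2, and the glypican gene Gpc6 by -0.38. With the mean of probe sets Dag1 stood at -0.07, Parva at -0.07, Ddr1 at 0.33 and Gpc6 at -0.68. Of the genes named in this paragraph, only Dag1 changed its sign by that choice.

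Tetraspanins and other lateral partners (15 genes) had a median of 0.37. Cav1, the caveolin gene, read 7.26 and 8.17 on the control arrays and 9.43 and 9.61 on the Wnt3A arrays, so that the groups differed by 1.80 (SE 0.35, limma adjusted p = 0.492), and Cd44, the gene of the hyaluronan receptor, differed by 0.60 (SE 0.17). The scavenger receptor gene Cd36 differed by -1.24 and the urokinase receptor gene Plaur by 0.93, the latter 0.14 without Wnt3A replicate 2. Heparan sulfate enzymes, which build and trim the chains that syndecans and perlecan carry, had 1 of 22 genes above both controls and 6 below both, with a median of -0.10. Sulf2, an extracellular sulfatase gene, read 7.44 and 7.34 on the control arrays and 5.87 and 6.87 on the Wnt3A arrays, so that the groups differed by -1.02 (SE 0.38), a value of -0.52 without Wnt3A replicate 1 and -1.52 without Wnt3A replicate 2; after scaling to hybridization controls they overlapped. The sulfotransferase gene Hs6st1 differed by -0.44 (SE 0.21). Hs3st1 differed by 1.28 from controls under the limit for dim genes, and Hs3st3a1 by -0.56. Syndecan partners and sheddases (13 genes) had a median of 0.13: Cask and Sdcbp, whose PDZ proteins bind the syndecan tail, differed by 0.67 and 0.37, the kinase gene Prkca by 0.49 (0.19 without Wnt3A replicate 2) and the sheddase gene Adam17 by -0.32.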

How the data were processed

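Trizol RNA of the 4 samples, 20 micrograms each, went into Affymetrix labelling, per the labels' protocols, whose text mentions Wnt3A for every sample; groups and replicate numbers were taken from the titles. The table the authors deposited is taken here as log2 signals because its values run from 0.50 to 13.23; its log base, normalization, centring and filters are unknown, and another base would rescale every difference. GCOS and PLIER are named without version or role, per the submitters' processing notes. The table gives no detection calls. Column medians were 4.19 and 4.20 (controls) and 4.22 and 4.15 (Wnt3A), so no further normalization was made.

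Of 22690 probe sets, 64 were array controls, 1555 were not listed in the platform annotation and 691 had several symbols. Of the array controls, 13 are listed with a symbol and stayed in; they represent 3 genes, none of them a member. The 20393 with 1 symbol gave 12394 genes, and 20364 of these probe sets were matched by Entrez ID to RefSeq symbols of GRCm38.p6. After the lowest 25% of genes by mean were left out, the remaining 9295 entered limma 3.58.1 under R 4.3.3 (lmFit, eBayes with intensity trend, two-sided, group as the only term, 4.68 degrees of freedom, Benjamini-Hochberg over all tested genes). The fit was tested on simulated data. For a single value, an exact permutation test of 2 against 2 arrays cannot give a two-sided p under 0.333, so none was run. P-values measure the spread between these arrays only.

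The members and gene lists were chosen with earlier results of these data known, so no list was tested. Values by array were planned for members at least 2-fold apart, or with groups that do not overlap and a difference of at least 0.5. Others were added after their values were seen. Of each list up to 4 genes of lowest p are named. Alternatives were quantile normalization, median centring, scaling to hybridization controls, no filter or the lowest 50% left out, averaging the probe sets of a gene, no intensity trend, the replicate number as a block, and each array left out in turn.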

Additional observations from a re-analysis of the deposited data

How the results depend on the processing

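The count of genes past an adjusted p of 0.05 in limma was 0 in the fit as reported, 1 with the lowest 50% left out and 49 after scaling to hybridization controls; it stayed at 0 under quantile normalization, median centring, no filter, the mean of probe sets, no intensity trend and each array left out. With the replicate number as a block (replicate block) it was 83, but 0 of the 34 tested members passed and the lowest adjusted p among them was 0.148, for Sdc1. Of the named genes of the other lists, Fbln1 (0.0272) and Cav1 (0.0368) passed with the block. Same-numbered arrays deviated together (r = 0.478 across genes, which are not independent), but the labels do not say that a number marks a shared culture or day, and 2 pairs do not settle it. Scaling to hybridization controls, whose means were 7.43, 7.57, 7.35 and 7.0 on control replicates 1 and 2 and Wnt3A replicates 1 and 2, left 1 member below both controls and turned the members' median to 0.26. Among tested members it turned the sign of Itga2b (0.31), Itga7 (0.20), Itgb1 (0.16), Itgb2l (0.25), Itgb4 (0.09), Itgb7 (0.26), Lamb2 (0.14), Lamc3 (0.27), Sdc2 (0.20) and Sdc4 (0.25), and of 3 members under the limit, Itgal, Itgam and Itgb6, as it adds 0.32 to each. Itga2b was at 0.01 under quantile normalization and under median centring, and Itgb3bp at -0.05 with the mean of probe sets.

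With 1 array left out, the members' median ran from -0.18 to 0.16. Members above the controls ran from 10 to 18 and members below from 15 to 22. Shares over all genes were not counted for these fits, so the member counts have no baseline. Genes at least 2-fold apart without overlap ran from 320 to 970, beside 342. The sign held in every such fit for 18 tested members and turned for 16: Itga2b (-0.19 to 0.18), Itga4 (-0.19 to 0.65), Itga6 (-0.0015 to 0.92), Itga7 (-0.44 to 0.20), Itgb1 (-0.51 to 0.20), Itgb2l (-0.16 to 0.01), Itgb3bp (-0.15 to 0.46), Itgb4 (-0.76 to 0.30), Itgb7 (-0.31 to 0.20), Lama2 (-0.83 to 0.08), Lama4 (-0.57 to 0.98), Lamb2 (-0.77 to 0.41), Lamc3 (-0.21 to 0.12), Sdc2 (-0.75 to 0.52), Sdc3 (-0.10 to 0.92) and Sdc4 (-0.50 to 0.37). Signals near 2.18, such as those of Itgbl1, Lamc3 and Itga4, are limited by background.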

Other observations

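For 9 of the 44 members (20.5%), replicate 2 was above replicate 1 by over 0.4 in control and with Wnt3A alike: Itga6, Itgb1, Itgb1bp2, Itgb4, Itgb7, Lama4, Lamb3, Sdc3 and Sdc4. Over all genes on the array the share was 6.17%. The limit of 0.4 was chosen after the values were seen, and nothing was tested. These are values of the probe sets of highest mean. The other Itga6 probe set and some of Itgb1 also passed the limit of 0.4, while those of Lama4, Sdc3 and Sdc4 did not. The α6 subunit encoded by Itga6 can pair with β1 or β4, and Sdc3 and Sdc4 are the syndecans of satellite cells.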
